A study of Arabidopsis thaliana with 6 samples.

Results

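The core histone genes of Arabidopsis thaliana code for the proteins around which DNA is wound, and 34 of them were followed by locus across the series: 8 genes for H4, 5 for the replication-linked form H3.1, 11 for H2B (HTB1 to HTB11) and 10 for H2A (the HTA family). They were 34 of 32834 loci with counts. The 6 libraries, 2 in each of 3 groups, were made from poly(A) RNA of whole Col-0 seedlings at 7 days of age. They are wild type (WT) and 2 transgenic sets, MIF_1 and MIF_3, whose genotype is given as pTA7002-Dexp:Myc-MIF, a Myc-tagged MIF placed behind a promoter that dexamethasone turns on. All 6 libraries, WT included, came from seedlings kept on 10 µM dexamethasone. The labels do not say what the set numbers mean or whether the libraries of a group were separate cultures, so p-values measure only the spread between these samples. No library of the vector alone was analysed here, so MIF and the vector that carries it cannot be told apart.

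A nucleosome holds a pair of each of H2A, H2B, H3 and H4. Most core histone mRNA is made while DNA is copied, in dividing cells of the meristems and young organs, and in plants these mRNAs carry a poly(A) tail and so enter poly(A) libraries. The H2A family has specialised kinds: H2A.X is marked at DNA breaks, H2A.Z sits at the starts of genes and within responsive genes, and H2A.W lies in heterochromatin. Of the 10 HTA genes followed here, 4 are of the ordinary kind (HTA1, HTA2, HTA10 and HTA13), 1 is H2A.X (HTA3), 2 are H2A.W (HTA7 and HTA12) and 3 are H2A.Z (HTA8, HTA9 and HTA11).

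Library totals ran from 18262579 to 24698636 counts, and the 34 genes took between 0.164% and 0.196% of them. WT replicate 2, the shallowest library, stood apart with 0.132% plastid-encoded counts, against 0.0203% to 0.0273% in the other 5 libraries. Markers of the organs were present in all groups, except that WUS, of the shoot stem cell niche, had no count in any library and CLV3 had counts in 1 library only. Of 3 leaf mesophyll markers 3 fell in the mean of both sets against WT, and their summed level went from 39394 to 40181 CPM (read counts scaled to TMM-adjusted library size) in WT to between 26345 and 33412 CPM in the transgenic libraries. Of 4 shoot meristem markers 2 were tested and 1 of these rose (KNAT1, sum of the 4 at 16.4 to 17.4 CPM in WT, 19.7 to 24.2 in the transgenic libraries). Of 4 of the stomatal lineage 1 fell (TMM, sum 45.3 to 55.2 and 39.6 to 41.1), and of 2 of root hairs and epidermis 0 passed. Over all genes tested in that comparison, 10.9% were called lower and 7.76% higher. Of 5 root meristem markers none passed the edgeR test in that comparison (0 also at an unadjusted p below 0.05), with a summed level of 79.6 to 84.7 CPM in WT and 65.6 to 82.3 CPM in the transgenic libraries. The part of organ or cell composition in the histone values was not tested, and in whole seedlings fewer cells of a type and less RNA per cell cannot be told apart.

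Plant histone promoters are known for short shared motifs, so the 300 bases before the annotated transcript start of each gene (RefSeq, TAIR10.1) were searched on both strands. The octamer CGCGGATC, a motif of plant histone promoters linked to expression in dividing cells, lay upstream of 7 of 34 genes (20.6%), against 41 of 27443 protein-coding genes (0.149%). Besides those 7, 3 of the 41 were other histone genes. By class the octamer was found in 2 of 8 H4, 3 of 5 H3.1, 2 of 10 H2A and 0 of 11 H2B genes. The hexamer ACGTCA, whose core is bound by bZIP proteins, lay upstream of 11 genes (32.4%, against 8.72% of protein-coding genes), and 8 of these 11 were H2B genes. An E2F motif (any of TTTCCCGC, TTTGGCGC, TTTCGCGC and TTTGCCGC) lay upstream of 4 genes (11.8%, against 1.57%). A match is a string of letters in the window and no evidence of binding. The windows below belong to 6 of the 7 genes whose level differed between WT and the mean of the transgenic sets. The gene not printed, AT5G59970 (H4), held none of the motifs. The windows show where matches lie and are not typical of every class: HTA11 holds the only hexamer among 10 H2A genes. Capitals mark an octamer or hexamer, which is read on the opposite strand where the letters are its reverse complement. The windows are chr5:24051174-24051473 (plus strand) for the H4 gene AT5G59690, chr5:3270958-3271257 (minus strand) for the H3.1 gene AT5G10400 and chr3:19888997-19889296 (plus strand) for HTB6. Those of the H2A genes are chr3:7229090-7229389 (plus strand) for HTA13, chr3:20195840-20196139 (plus strand) for HTA11 and chr1:20415288-20415587 (minus strand) for HTA3, which holds none of the motifs. All are printed 5′ to 3′ on the strand of the gene.
AT5G59690: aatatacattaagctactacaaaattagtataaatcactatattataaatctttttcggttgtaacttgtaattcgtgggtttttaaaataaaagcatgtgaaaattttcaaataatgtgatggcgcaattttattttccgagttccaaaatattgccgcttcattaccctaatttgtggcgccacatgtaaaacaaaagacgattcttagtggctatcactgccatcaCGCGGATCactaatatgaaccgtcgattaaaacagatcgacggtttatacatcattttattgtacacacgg
AT5G10400: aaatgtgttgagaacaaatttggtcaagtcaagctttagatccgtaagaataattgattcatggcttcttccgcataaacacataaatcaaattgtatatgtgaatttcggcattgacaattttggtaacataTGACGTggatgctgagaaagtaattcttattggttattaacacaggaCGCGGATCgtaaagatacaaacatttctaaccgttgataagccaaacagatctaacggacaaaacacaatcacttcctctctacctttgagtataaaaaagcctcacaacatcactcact
HTB6: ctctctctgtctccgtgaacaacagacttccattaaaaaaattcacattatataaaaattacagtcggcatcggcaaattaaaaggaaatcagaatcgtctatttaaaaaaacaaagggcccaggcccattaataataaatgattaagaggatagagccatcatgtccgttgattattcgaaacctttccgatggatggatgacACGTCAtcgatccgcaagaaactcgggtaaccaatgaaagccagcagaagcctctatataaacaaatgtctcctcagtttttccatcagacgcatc
HTA13: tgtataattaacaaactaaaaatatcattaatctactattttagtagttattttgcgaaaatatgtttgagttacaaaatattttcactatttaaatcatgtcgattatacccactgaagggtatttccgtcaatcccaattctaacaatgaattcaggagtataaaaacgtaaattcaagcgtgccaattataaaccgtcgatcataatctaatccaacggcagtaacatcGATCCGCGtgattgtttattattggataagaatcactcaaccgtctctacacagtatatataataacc
HTA11: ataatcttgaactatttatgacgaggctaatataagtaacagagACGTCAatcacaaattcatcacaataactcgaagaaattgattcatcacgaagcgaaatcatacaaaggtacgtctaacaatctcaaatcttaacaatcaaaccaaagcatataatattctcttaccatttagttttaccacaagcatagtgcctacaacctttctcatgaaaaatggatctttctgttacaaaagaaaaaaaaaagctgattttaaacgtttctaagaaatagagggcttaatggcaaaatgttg
HTA3: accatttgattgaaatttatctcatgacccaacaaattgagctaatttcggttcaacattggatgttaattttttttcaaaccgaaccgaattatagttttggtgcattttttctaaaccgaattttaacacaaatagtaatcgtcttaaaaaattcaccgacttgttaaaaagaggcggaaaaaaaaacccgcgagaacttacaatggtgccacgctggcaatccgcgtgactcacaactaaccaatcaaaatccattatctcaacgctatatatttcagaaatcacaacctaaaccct
On that strand the octamer began 71 bases before the transcript start in AT5G59690, 120 in AT5G10400 and 68 in HTA13. The hexamer began 96 bases before the start in HTB6, 256 in HTA11 and 167 in AT5G10400.

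**Figure D1:**
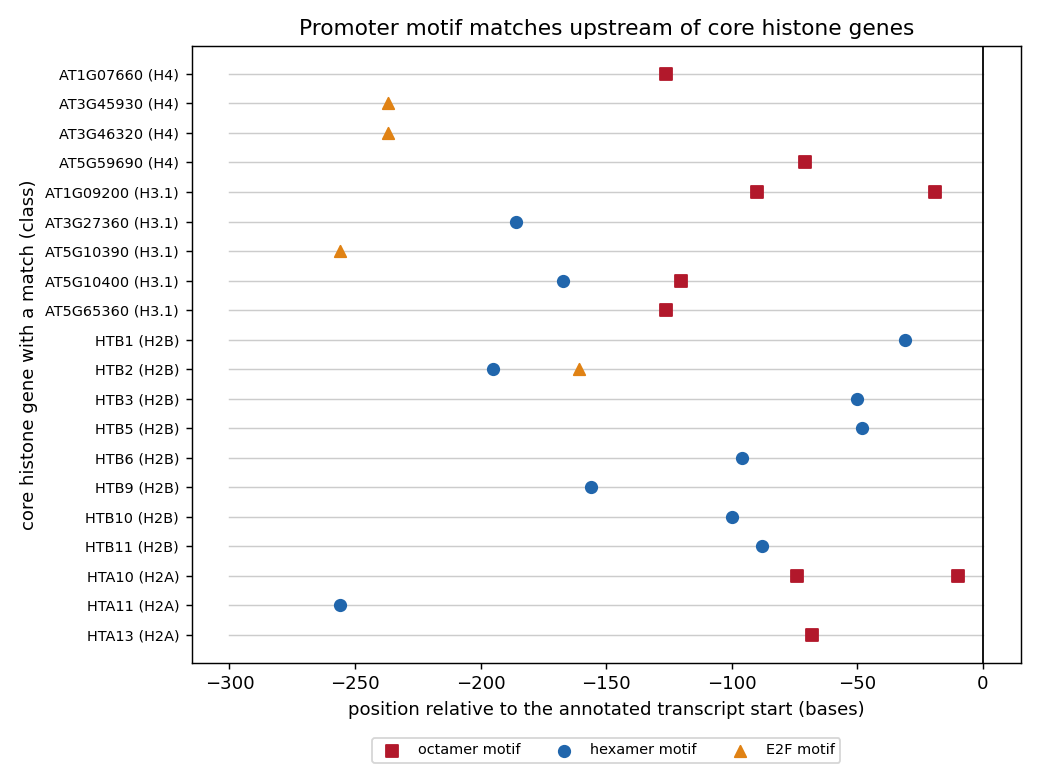
Positions of octamer (squares), hexamer (circles) and E2F (triangles) matches in the 300 bases before the annotated start, on the x axis in bases, for the core histone genes with at least 1 match, on the y axis with their class. Octamers sit in H4, H3.1 and H2A genes and hexamers mostly in H2B genes, 8 of 11.

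H4 and H3.1 genes resemble each other within their class: compared base by base, H4 coding sequences of 312 bases were 78.85% to 98.08% identical over 28 pairs, and H3.1 sequences of 411 bases 80.29% to 89.54% over 10 pairs. Within each class a few genes carried most of the transcript, by CPM per kilobase of exon, the scale on which genes were compared. Among H3.1 genes, AT5G65360 took 39.1% of the class level on average over the 6 libraries (38.1% to 40.4%) and AT1G09200 took 27.1% (24.6% to 28.6%). The H4 gene AT5G59690 took 29.1% (26.4% to 32.1%), above the next, AT1G07820, at 14.2% (13.3% to 15.4%). Among H2B genes HTB9 (22.4%), HTB4 (21.6%) and HTB11 (21.2%) had ranges that overlapped between libraries, so their order is not settled. Among H2A genes HTA10, of the ordinary kind, took 24.3%, followed by the H2A.Z gene HTA9 at 17.9% and the ordinary HTA13 at 13.5%. Level per kb differed 6.44-fold between the highest and lowest H4 gene, 5.11-fold for H3.1, 45.5-fold for the 9 H2B genes tested and 24.8-fold for H2A. HTB8 had counts of 0, 2, 0, 1, 1 and 4 in the libraries, and HTB10 had 0 in each, which allows up to 0.118 to 0.181 CPM by a floor of 3 counts per library (counting error only). HTB10 lies wholly within HTA12 on the opposite strand, and the counting of reads in such overlaps is not known here. Both were under the filter on low counts, so 32 of 34 genes were tested.

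**Figure D2:**
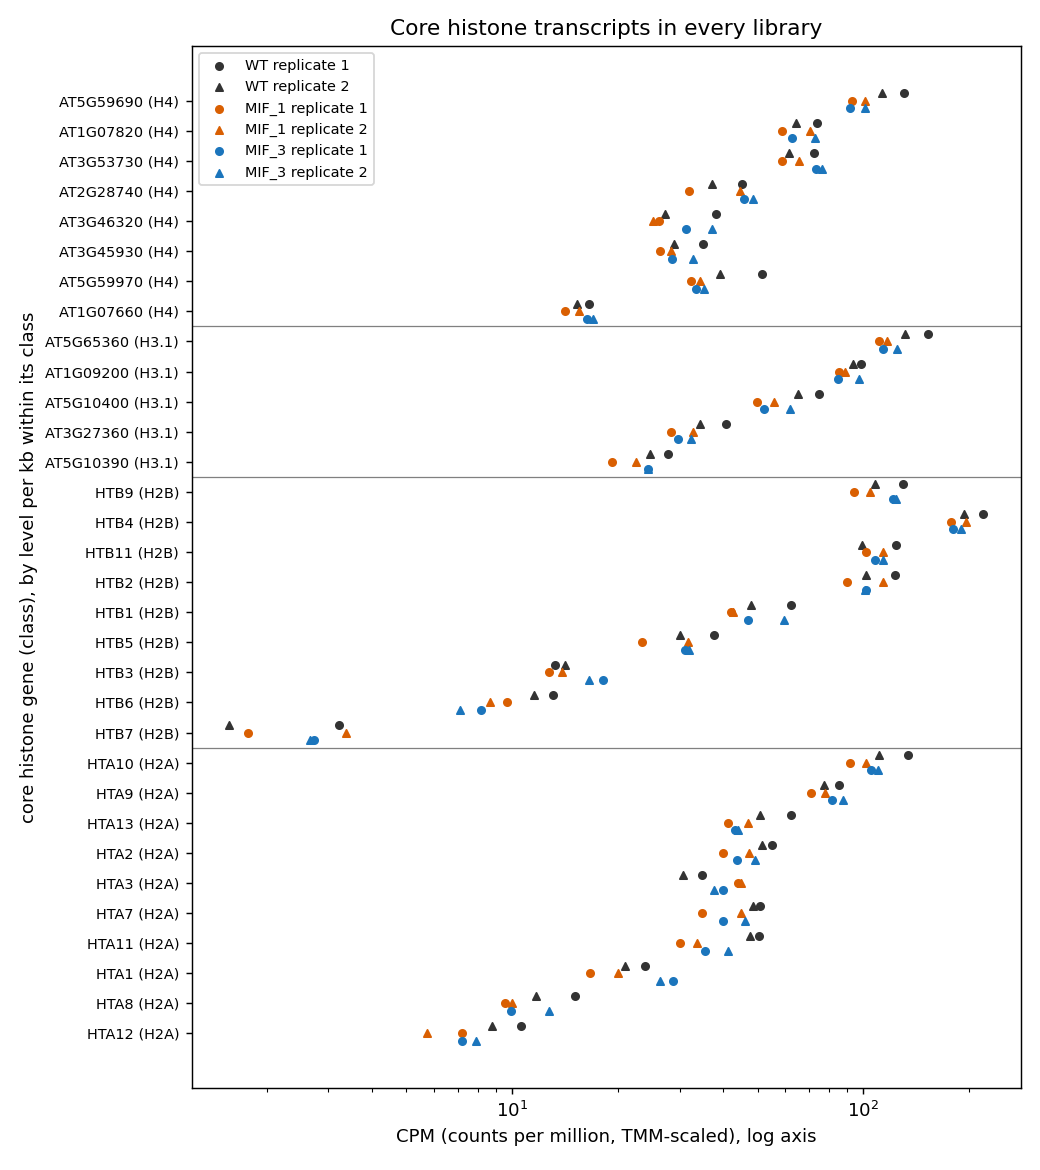
Level of the 32 tested core histone genes in every library, as CPM on a log x axis, with genes on the y axis by class and, within a class, by level per kb. Colours are groups and symbols replicates. The AT5G59690 points of WT, 112.8 and 130.7 CPM, lie to the right of the 4 transgenic points, and those of HTA3 to the left.

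Summed over its genes, every class had a lower mean in both transgenic sets than in WT, by less than the spread between WT libraries in several cases. All 34 genes together summed to 2107 and 1801 CPM in WT, against 1574 and 1765 in MIF_1 and 1742 and 1871 in MIF_3. The WT libraries differed by more than MIF_3 did from WT replicate 2, and MIF_3 replicate 2 lay above WT replicate 2. Group means were 1954 ± 216 CPM for WT (SD, n = 2), 1669 ± 135 for MIF_1 and 1806 ± 91.0 for MIF_3. For H3.1 the sums were 395 and 349 in WT, against 293 and 317 in MIF_1 and 305 and 340.4 in MIF_3, and this was the class in which all 4 transgenic libraries were below both WT libraries. For H4, H2B and H2A the transgenic and WT libraries overlapped, with MIF_3 at 402 ± 26.3 CPM against 425 ± 54.9 in WT for H4, 633 ± 20.0 against 667 ± 83.2 for H2B and 449 ± 19.7 against 490.4 ± 45.1 for H2A. Both MIF_1 libraries lay below both WT libraries for H4 (340.8 and 385.4 against 463.7 and 386.1) and H2A (386.1 and 433.7 against 522.3 and 458.6). For H2B they did not (553.4 and 629.1 against 725.6 and 607.9).

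**Figure D3:**
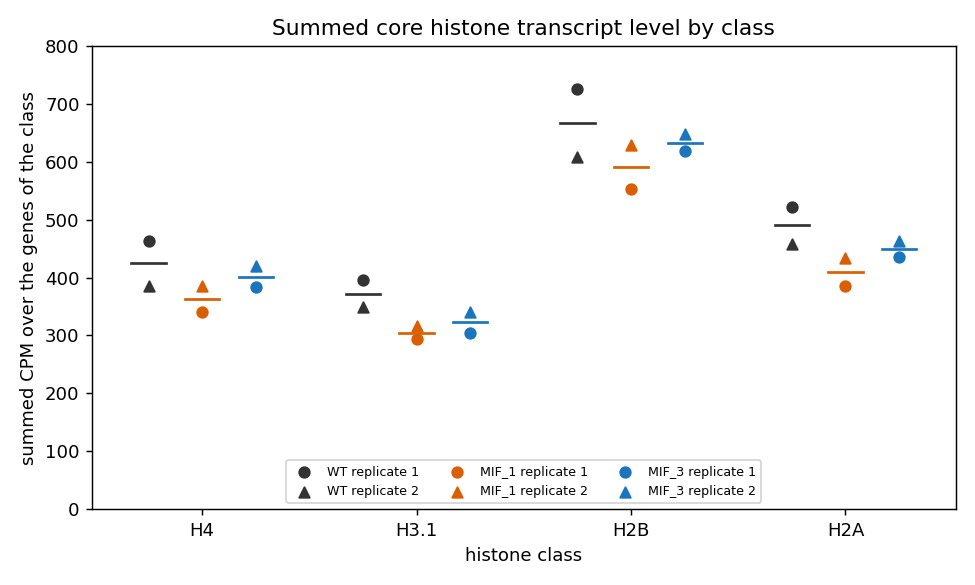
Summed CPM of each histone class (y axis) in the 6 libraries, with classes on the x axis, points for libraries and short lines for group means. H3.1 is the class whose 4 transgenic points all lie below both WT points, the lower of which is at 349 CPM.

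Gene by gene, the mean of both transgenic sets gave small falls from WT, with 1 gene in the other direction. By edgeR's quasi-likelihood test with Benjamini-Hochberg adjustment over all 20438 genes tested, 6 of the 32 genes fell, 1 rose and 25 did not pass. Of all genes tested, 18.7% were called, 10.9% lower and 7.76% higher. The 7 of 32 histone genes called are a share near that of all genes. The median log2 fold change of the 32 genes was -0.17, against 0.01 over all genes tested, and 27 of 32 were below 0. At an unadjusted p below 0.05 there were 12 of the 32, where 32.7% of all genes reached it. DESeq2 called 7 lower and 1 higher. In 13 of the 32 all 4 transgenic libraries lay below both WT libraries, and in 1 above, where 19.9% and 18.9% of all genes did so. Without WT replicate 1 the median of the 32 was -0.04 and 0 passed; leaving out WT replicate 2 instead gave -0.29 and 3 falls. With library sizes left unscaled it was 0.00, where the median over all genes moved to 0.19, so that the histone genes were 0.19 below the median gene with or without the scaling. WT replicate 2 lay below WT replicate 1 in 31 of 32 genes, by a median of 0.23 on the log2 scale, and in 14 of 14 genes of DNA replication. In MIF_1 replicate 2 lay above replicate 1 in 29 of the 32 histone genes (median 0.15), and in MIF_3 in 26 (0.08). The DNA replication genes did not share this: replicate 2 lay above in 3 and below in 11 of 14 in MIF_1 (median -0.13). In MIF_3 it lay above in 8 and below in 6 (median 0.04). These counts were not made over all genes tested. The histone genes thus moved together between libraries of the same group, and genes that share a direction do not count as separate results.

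H4 genes wrap DNA as the partner of H3, and 2 of the 8 fell in the mean of both sets while 6 did not pass (class median log2 -0.10). AT5G59690, the H4 gene with the highest level and an octamer in the window printed above (chr5:24051474-24052218, plus strand), had 130.7 and 112.8 CPM in WT, against 92.7 and 101.4 in MIF_1 and 91.6 and 101.0 in MIF_3. The groups did not overlap, and both sets had about the same level. It fell by 0.33 ± 0.10 log2 units (SE; 4 libraries against 2, edgeR adjusted p = 0.0379). AT5G59970 (chr5:24145831-24146729, minus strand) had 51.6 and 39.2 CPM in WT, against 32.2 and 34.4 in MIF_1 and 33.4 and 35.2 in MIF_3. The transgenic libraries were close together and below both WT libraries, which were themselves apart (log2 -0.43 ± 0.12, edgeR adjusted p = 0.0318). In single sets neither passed, with adjusted p of 0.0739 and 0.0508 in MIF_1 and 0.0788 and 0.0842 in MIF_3. The other 6 H4 genes ranged from -0.14 to 0.05 in log2 fold change. Among them AT3G45930 and AT3G46320 share 11.1% and 12.1% of their 100-base exon windows with other loci, and AT1G07660 and AT1G07820 share 7.25% and 4.32%, so their counts could be split between copies; AT5G59690 and AT5G59970 share none. The call of AT5G59690 ended without WT replicate 1 (edgeR adjusted p = 0.318) or 2 (0.0514), MIF_1 replicate 1 (0.112) or 2 (0.0696), or MIF_3 replicate 1 (0.0737). That of AT5G59970 ended without WT replicate 1 (0.348), MIF_1 replicate 1 (0.0990) or 2 (0.0768), or MIF_3 replicate 1 (0.0575), and both ended with upper-quartile factors (0.0716 and 0.0525) or unscaled library sizes (0.265 and 0.157).

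H3.1 is the H3 form placed behind the replication fork, and all 5 of its genes had a log2 fold change below 0, of which 1 passed the test (class median -0.28). AT5G10400, which has an octamer and a hexamer upstream (chr5:3270172-3270957, minus strand), had 74.8 and 65.0 CPM in WT, against 49.9 and 55.5 in MIF_1 and 52.1 and 61.9 in MIF_3. Every transgenic library lay below both WT libraries, by least for MIF_3 replicate 2. It fell by 0.35 ± 0.11 log2 units (edgeR adjusted p = 0.0471). AT5G65360, the H3.1 gene with the highest level, had 153.3 and 131.1 CPM in WT, against 110.7 and 117.2 in MIF_1 and 114.1 and 124.5 in MIF_3. The groups did not overlap, yet the gene did not pass in edgeR (log2 -0.29 ± 0.09, adjusted p = 0.0606), where DESeq2 gave an adjusted p of 0.0446. AT5G10390, 577 bases from AT5G10400 and on the same strand, had a log2 fold change of -0.22 ± 0.11 and did not pass (edgeR adjusted p = 0.193). AT1G09200, with 2 octamers upstream, had -0.11 ± 0.09 (edgeR adjusted p = 0.448) and overlapping groups, and AT3G27360 had -0.28 ± 0.11 (0.107). The call of AT5G10400 ended without WT replicate 1 (edgeR adjusted p = 0.325) or 2 (0.0711), MIF_1 replicate 1 (0.129) or 2 (0.0775), or MIF_3 replicate 1 (0.0951), with upper-quartile factors (0.0810) and with unscaled library sizes (0.251).

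H2B pairs with H2A, and of its 9 tested genes 1 fell and 8 did not pass (class median log2 -0.14). That gene, HTB6 (AT3G53650, chr3:19889297-19890251, plus strand), was among the least abundant, with 13.1 and 11.6 CPM in WT, against 9.70 and 8.64 in MIF_1 and 8.13 and 7.09 in MIF_3. The levels stepped down from WT to MIF_1 to MIF_3 with no overlap between groups. It fell by 0.56 ± 0.15 log2 units in the mean of both sets (edgeR adjusted p = 0.0262), and it fell by 0.70 ± 0.17 in MIF_3 (0.0284), where MIF_1 did not pass (-0.43 ± 0.17, 0.122). The difference between the sets did not pass either (-0.27 ± 0.17, edgeR adjusted p = 0.506). HTB9, which had the highest level per kb in the class, had 129.5 and 108.0 CPM in WT, against 94.3 and 104.8 in MIF_1 and 121.5 and 124.2 in MIF_3. MIF_1 lay below both WT libraries and MIF_3 between them, and the gene did not pass (log2 -0.10 ± 0.10, 95% interval -0.32 to 0.12; edgeR adjusted p = 0.519). The 8 that did not pass ranged from -0.22 (HTB1) to 0.15 (HTB3) in log2 fold change. HTB9 overlaps 2 loci on the opposite strand, from whose reads its own cannot be told apart without strand. Over both sets the call of HTB6 ended without WT replicate 1 (edgeR adjusted p = 0.175) or 2 (0.0582), MIF_1 replicate 1 (0.0524) or 2 (0.0825), or MIF_3 replicate 2 (0.0556), and with unscaled library sizes (0.0948). Its call in MIF_3 ended without any one of the 6 libraries (edgeR adjusted p from 0.0507 to 0.136).

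H2A genes held both the clearest fall and the rise. Of the 10 tested, 2 fell, 1 rose and 7 did not pass in the mean of both sets (class median log2 -0.26, with 9 below 0). HTA11 (AT3G54560, chr3:20196140-20197726, plus strand), which codes for H2A.Z, had 50.5 and 47.6 CPM in WT, against 30.0 and 33.6 in MIF_1 and 35.4 and 41.1 in MIF_3. WT libraries were close together and above every transgenic library, with MIF_1 the lowest. It fell by 0.49 ± 0.10 log2 units, to 0.712 of the WT level (edgeR adjusted p = 0.00895), and by 0.62 ± 0.12 in MIF_1 (0.00714), while MIF_3 did not pass (-0.36 ± 0.12, 0.0801). Over both sets its call ended without WT replicate 1, and held in 13 other alternatives and at the threshold of 0.01. The call in MIF_1 ended without MIF_1 replicate 1. The other H2A.Z genes, HTA9 and HTA8, did not pass, with HTA8 at -0.35 ± 0.16 (edgeR adjusted p = 0.164). HTA9, the H2A.Z gene with the highest level, had 85.4 and 77.5 CPM in WT, against 71.0 and 78.1 in MIF_1 and 81.6 and 87.6 in MIF_3. Its groups overlapped (log2 -0.04 ± 0.09, 95% interval -0.24 to 0.17; edgeR adjusted p = 0.824).

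HTA3 (AT1G54690, chr1:20414316-20415287, minus strand), which codes for H2A.X, was the gene that rose, with 34.7 and 30.7 CPM in WT, against 43.9 and 44.9 in MIF_1 and 39.99 and 37.6 in MIF_3. All 4 transgenic libraries were above both WT libraries, and MIF_1 was the highest. Its log2 fold change was 0.34 ± 0.10 in the mean of both sets, 1.27 times WT (edgeR adjusted p = 0.0353), and 0.44 ± 0.11 in MIF_1 (0.0233), while MIF_3 did not pass (0.25 ± 0.11, 0.184). HTA3 kept its direction with unscaled library sizes (0.26 to 0.52 over 14 alternatives). It overlaps AT1G54680 on the opposite strand, which had 26 to 91 counts per library where HTA3 had 510 to 1082, and a log2 fold change of 0.68 (edgeR adjusted p = 0.155). Averaged over both sets, its call ended without WT replicate 1 (edgeR adjusted p = 0.0651) or 2 (0.242), MIF_1 replicate 1 (0.0758) or 2 (0.0900), or MIF_3 replicate 1 (0.0742). The call in MIF_1 ended without WT replicate 2 (0.141) or MIF_1 replicate 1 (0.0938) or 2 (0.118).

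Among ordinary H2A genes, HTA13 (AT3G20670, chr3:7229390-7230146, plus strand) fell, with 62.3 and 50.8 CPM in WT, against 41.1 and 47.0 in MIF_1 and 43.2 and 43.9 in MIF_3. The groups did not overlap, and the WT libraries differed from each other by more than the 4 transgenic ones did (log2 -0.37 ± 0.11, edgeR adjusted p = 0.0405). Its overlap partner AT3G20680, on the opposite strand, had 424 to 688 counts against 842 to 1242 for HTA13, and a log2 fold change of 0.00 (adjusted p = 0.992). HTA10, the H2A gene with the highest level, had 134.0 and 110.7 CPM in WT, against 91.9 and 101.9 in MIF_1 and 105.2 and 110.1 in MIF_3. It did not pass (log2 -0.26 ± 0.10, edgeR adjusted p = 0.101), although all transgenic libraries were below WT, MIF_3 replicate 2 by the least. HTA7, the H2A.W gene with the higher level, had 50.8 and 48.4 CPM in WT, against 34.8 and 44.9 in MIF_1 and 39.8 and 46.1 in MIF_3. All transgenic libraries were below WT but spread widely (log2 -0.26 ± 0.12, edgeR adjusted p = 0.161). HTA12, the other H2A.W gene, had -0.48 ± 0.17 and did not pass (edgeR adjusted p = 0.0856), nor did the ordinary HTA2 (-0.24 ± 0.10, 0.141). The call of HTA13 ended without WT replicate 1 (edgeR adjusted p = 0.367), MIF_1 replicate 1 (0.117) or 2 (0.0607), or MIF_3 replicate 1 (0.0664) or 2 (0.0559), with upper-quartile factors (0.0686) and with unscaled library sizes (0.236).

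Taken set by set, MIF_1 was lower than MIF_3 in 26 of 32 genes, though the difference between the sets passed in edgeR for none of them. In MIF_1 against WT, HTA3 rose and HTA11 fell, where 17.7% of all genes were called, 7.82% higher and 9.85% lower. The median of the 32 genes was -0.29, 30 were below 0, and 16 reached an unadjusted p below 0.05, where 31.3% of all genes did. HTB6 fell in MIF_3 and 31 genes did not pass, where 13.3% of all genes were called, 7.47% lower and 5.84% higher. There the median was -0.11, 22 were below 0, and 8 reached an unadjusted p below 0.05, where 27.6% of all genes did. Without WT replicate 1 the medians were -0.14 in MIF_1 and 0.00 in MIF_3, and without WT replicate 2 they were -0.38 and -0.24. These comparisons share the WT libraries. In MIF_3 against MIF_1, edgeR called 0 of 32 genes, where 1.76% of all genes were called, 0.475% higher and 1.29% lower. The median was 0.13, and 5 of the 32 reached an unadjusted p below 0.05, where 16% of all genes did. DESeq2 called 1 gene there, HTA1, named after its value was seen. HTA1, an ordinary H2A gene known as RAT5 for its role in transformation by Agrobacterium, had 23.9 and 21.0 CPM in WT, against 16.6 and 20.0 in MIF_1 and 28.7 and 26.4 in MIF_3. MIF_1 lay below WT and MIF_3 above it, with a log2 difference of 0.59 ± 0.14 (edgeR adjusted p = 0.0649; DESeq2 0.0343). The median difference of the 32 genes was 0.04 without MIF_1 replicate 1 or MIF_3 replicate 2, 0.22 without MIF_1 replicate 2 and 0.20 without MIF_3 replicate 1.

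**Figure D4:**
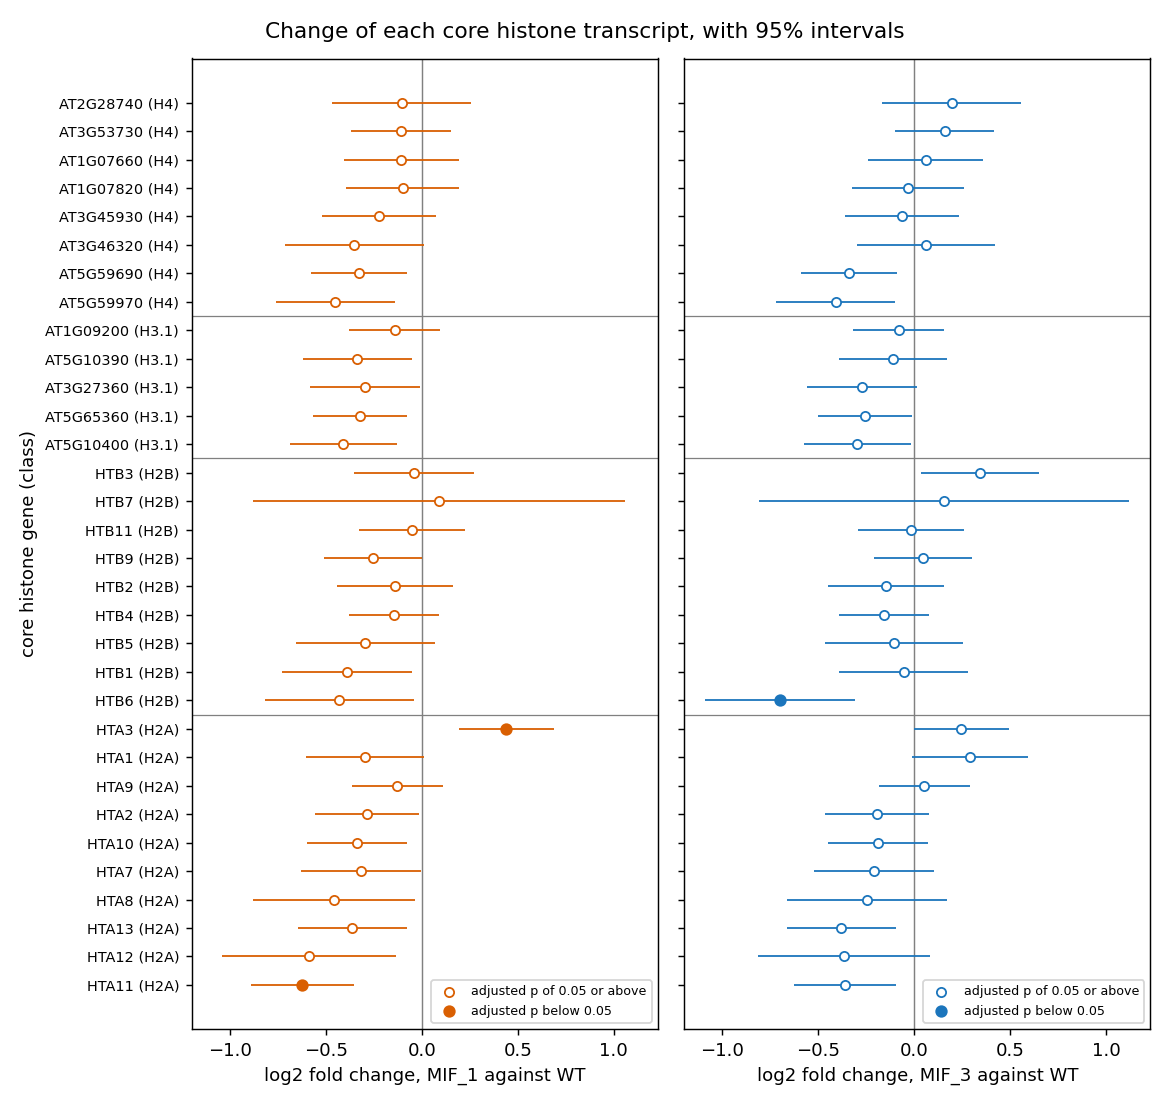
Log2 fold change with its 95% interval (x axis) of each tested core histone gene (y axis, by class) in MIF_1 and in MIF_3 against WT; filled points have an edgeR adjusted p below 0.05. Filled points are HTA3 (0.44) and HTA11 (-0.62) in MIF_1 and HTB6 (-0.70) in MIF_3.

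The 7 genes with an octamer upstream had a median log2 fold change of -0.29 in the mean of both sets, of which 3 fell and 7 were below 0, while the 25 tested genes without it had a median of -0.14, of which 3 fell, 1 rose and 20 were below 0. The 10 tested genes with a hexamer had a median of -0.21 and the 22 without it -0.15, with 3 falls in each. For the E2F motif the order was the other way, with a median of -0.14 and 0 falls for the 4 genes with it, and -0.21 and 6 falls for the 28 without. No test was made between these groups, which also differ in class. Of the 7 octamer genes 3 are H3.1, the class with a median of -0.28, and 0 are H2B, while 8 of all 11 hexamer genes are H2B. Motif and class cannot be told apart here.

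Other genes that handle or accompany histones were listed by function. The counts called in these lists stand beside 10.9% lower and 7.76% higher over all genes tested in the mean of both sets, with a median of 0.01. Of 12 tested histone genes outside the members, 1 rose and 11 did not pass in the mean of both sets (median log2 -0.08). H1.3, a linker histone gene known to respond to drought, had 2.01 and 1.57 CPM in WT, against 3.07 and 3.57 in MIF_1 and 8.33 and 6.89 in MIF_3. Both sets were above WT and MIF_3 was the highest, with a log2 fold change of 1.48 ± 0.25 in the mean (edgeR adjusted p = 0.00313). H1.3 rose in MIF_3 (2.08 ± 0.27, edgeR adjusted p = 0.00123) and did not pass in MIF_1 (0.88 ± 0.28, 0.0569). Its WT libraries held 40 and 26 counts. HTA6, a further H2A.W gene, did not pass in the mean (-0.35 ± 0.12, edgeR adjusted p = 0.0626), nor did the linker histone gene H1.1 (-0.16 ± 0.08, 0.218). HTA6 fell in MIF_1 alone (-0.46 ± 0.14, 0.0456) and did not pass in MIF_3 (-0.25 ± 0.14, 0.276). Its call in MIF_1 ended with upper-quartile factors, a replicate block or unscaled library sizes. It also ended without WT replicate 1, MIF_1 replicate 1 or MIF_1 replicate 2.

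Of 14 histone chaperone genes, whose products carry histones to DNA, 3 rose, 1 fell and 10 did not pass in the mean of both sets (median 0.06). The list was split, with 7 genes above 0 and 7 below 0, so its median describes neither part. NAP1;3, a chaperone of H2A and H2B, rose by 0.44 ± 0.09 log2 units (edgeR adjusted p = 0.00826) and its relative NRP2 by 0.38 ± 0.10 (0.0253). TSK, also called TONSOKU, which binds H3.1 of newly copied chromatin, fell by 0.58 ± 0.14 (0.0165). The call of NAP1;3 ended without WT replicate 2 (0.0889). That of NRP2 ended without WT replicate 1 (0.156) or 2 (0.0826) or MIF_1 replicate 1 (0.0732), and that of TSK without WT replicate 1 (0.0971) or 2 (0.0601) or MIF_1 replicate 2 (0.0504) and with unscaled library sizes (0.0602). The rises numbered 0 without WT replicate 2, 1 without WT replicate 1 or MIF_1 replicate 1, and 2 without MIF_1 replicate 2 or MIF_3 replicate 1. With unscaled library sizes 7 chaperone genes rose and 0 fell. Taken singly against WT, MIF_1 had 4 chaperone genes called higher and 1 lower by edgeR, whereas MIF_3 had 0 called. The log2 fold change of NRP2 was 0.61 ± 0.11 for MIF_1 (edgeR adjusted p = 0.00588) but 0.15 ± 0.11 for MIF_3 (0.433). For NAP1;3 the values were 0.54 ± 0.10 (0.00684) and 0.35 ± 0.10 (0.0519), and for TSK -0.63 ± 0.16 (0.0256) and -0.53 ± 0.16 (0.0575).

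Genes of DNA copying and cell division had lower medians than the histone genes, a difference that was not tested. Of 14 DNA replication genes 7 fell and 7 did not pass in the mean of both sets (median log2 -0.40), and their summed level was 504 to 584 CPM in WT and 435 to 461 CPM in the transgenic libraries. The helicase subunit genes MCM2, MCM6 and MCM7 fell by 0.46 ± 0.09, 0.53 ± 0.11 and 0.47 ± 0.11 (edgeR adjusted p = 0.00703, 0.00770 and 0.0139). Of 10 mitosis genes 9 fell and 1 did not pass (median -0.57), with summed levels of 312 to 339 CPM in WT and 209 to 234 CPM in the transgenic libraries. The cyclin genes CYCB1;2 and CYCA1;1 fell by 0.81 ± 0.10 (edgeR adjusted p = 4.80e-04) and 0.59 ± 0.12 (0.00927), and KNOLLE, which acts in building the new cell wall, by 0.50 ± 0.09 (0.00470). Without WT replicate 1 the falls numbered 0 of 14 and 3 of 10, and the calls of MCM2 (0.0656), MCM6 (0.0747), MCM7 (0.141) and CYCA1;1 (0.115) ended. Without MIF_1 replicate 2 they numbered 2 and 7, and that of MCM7 ended (0.0552). Without WT replicate 2 they numbered 6 and 6, without MIF_1 replicate 1 5 and 5, and with unscaled library sizes 1 and 4, where the calls of MCM2 (0.0557) and MCM7 (0.0781) ended. Among 7 regulators of S-phase transcription, RBR1, which holds E2F factors in check, fell by 0.46 ± 0.08 (edgeR adjusted p = 0.00470) and 6 did not pass, among them DPA (0.29 ± 0.15, 0.225) and E2FC (0.22 ± 0.13, 0.281). Their median was -0.14, with 5 genes below 0 and 2 above. With unscaled library sizes 2 regulators were called higher and 1 lower. The part of these genes in the histone values was not tested.

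**Figure D5:**
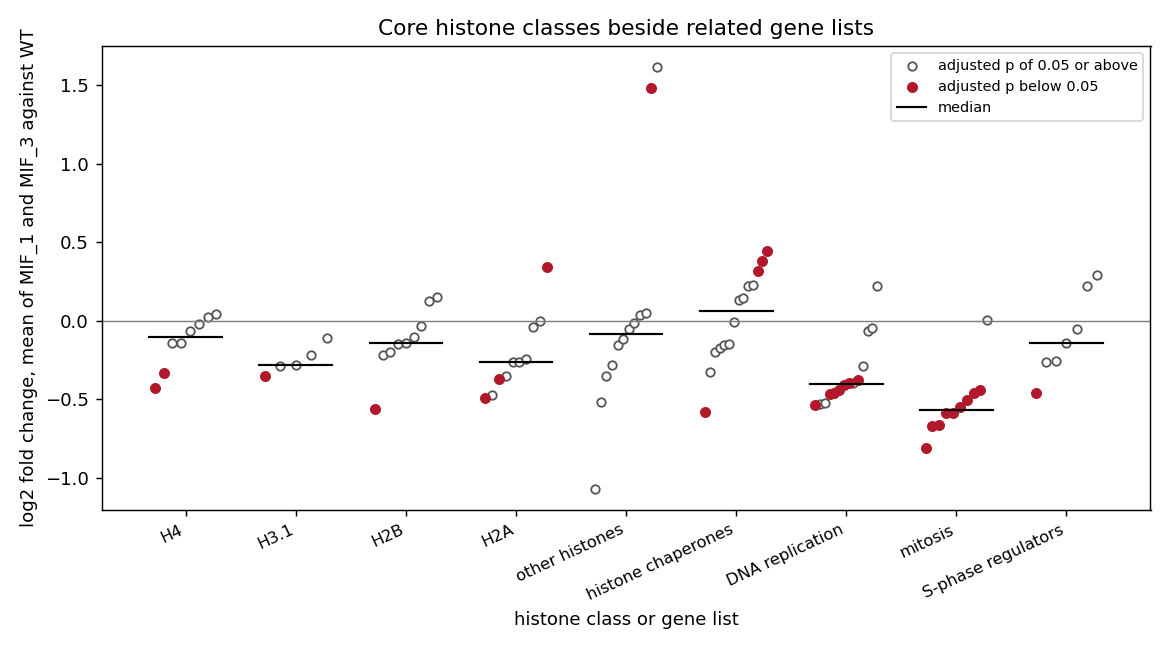
Log2 fold change of both transgenic sets, averaged, from WT (y axis) of each tested gene in the 4 histone classes and 5 related lists (x axis), with filled points for an edgeR adjusted p below 0.05 and lines for medians. Class medians lie between -0.28 and -0.10, those of DNA replication and mitosis at -0.40 and -0.57.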

How the data were processed

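The deposited file held whole-number read counts per locus, without normalization, for 6 libraries. Per the submitters' processing notes, fastp, STAR, HTSeq and TAIR10 were used by the authors to make these counts. Their versions, strand setting, annotation release and treatment of reads that match several places were not given in the sources used here.

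Libraries were grouped by title. R 4.3.3 with limma 3.58.1 and edgeR 4.0.16 tested the counts: filterByExpr (minimum count 10, minimum total 15) kept 20438 genes, TMM factors were applied, and a quasi-likelihood model had 1 coefficient per group over all 6 libraries, with 3 residual degrees of freedom and a common dispersion of 0.0174. P-values were adjusted by Benjamini-Hochberg over all genes, with calls below 0.05. SE is the size of the log2 fold change divided by the root of its F statistic. CPM used TMM-scaled library sizes, and levels per kb used exon lengths of the RefSeq TAIR10.1 annotation, from which names, positions and sequences also come. The count table holds no coordinates. Of the 34 genes 16 have a symbol there; the HTB names without one come from the choice of members.

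The members and lists were chosen with earlier results of these data known, and the lists were not tested as sets. Values in every library are given for genes called in the mean of both sets or between the sets, and for the gene with the highest level per kb of each class and H2A kind; up to 3 genes per list are named by smallest p. Alternatives were DESeq2 1.42.0, other scaling factors, other filters on low counts, organelle-encoded genes removed, a threshold of 0.01, a replicate block, leaving out each library, and unscaled library sizes, the last chosen after the data were seen. A library left alone in its group by such an omission is taken to vary as the other groups do. The edgeR fit, but not DESeq2, was run on simulated counts in which every gene had the same dispersion. Its mark for recovery was set on larger changes than those of the histone genes, so it does not bear on their calls.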

Additional observations from a re-analysis of the deposited data

Results flagged for a closer look

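The difference between MIF_3 and MIF_1, tested in edgeR as a contrast of its own, passed for 3 genes of the listed histone-related genes and for none of the core histone genes. H1.3 was higher in MIF_3 by 1.196 ± 0.25 log2 units (SE, n = 2 against 2; edgeR adjusted p = 0.0473), with 8.33 and 6.89 CPM in MIF_3 and 3.07 and 3.57 in MIF_1. The chaperone genes NRP1 and NAP1;1 were lower in MIF_3, with log2 differences of -0.46 ± 0.09 (0.0435) and -0.46 ± 0.10 (0.0459). NRP1 had 78.3 and 75.9 CPM in MIF_3 and 106.8 and 105.2 in MIF_1, beside 72.2 and 73.2 in WT. NAP1;1 had 92.2 and 91.5 CPM in MIF_3 and 131.5 and 121.3 in MIF_1, beside 91.0 and 94.2 in WT. Their calls ended without any one of the 6 libraries (edgeR adjusted p from 0.0628 to 0.303 for NRP1 and from 0.0671 to 0.345 for NAP1;1), and that of H1.3 without MIF_1 replicate 1 (0.361) or 2 (0.207) or MIF_3 replicate 1 (0.157) or 2 (0.0587), at a mean count of at least 50 (0.0511) and with unscaled library sizes (0.0515). With upper-quartile factors those of NRP1 and NAP1;1 ended too (0.0510 and 0.0523). With a replicate block the adjusted p-values of NRP1, NAP1;1 and H1.3 were 0.0770, 0.0807 and 0.0735.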

How the results depend on the processing

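In the mean of both sets, 6 core histone genes fell and 1 rose. The falls numbered 2 with upper-quartile factors, 1 at an adjusted p below 0.01 (where 0 rose) and 1 with unscaled library sizes, an alternative chosen after seeing the data. Leaving out 1 library gave 0 to 4 falls and 0 to 1 rises. In MIF_1, 1 gene fell and 1 rose; 3 fell in DESeq2, with RLE factors, without a filter on low counts and without organelle-encoded genes, the added genes being AT5G59970 and AT5G10400 each time, and 0 rose at 0.01. Leaving out 1 library gave 0 to 3 falls and 0 to 1 rises. In MIF_3, 1 gene fell; 0 fell at 0.01, and with unscaled sizes 0 fell and 2 rose (HTB3 and HTA3). Leaving out 1 library gave 0 to 1 falls and 0 rises. Between the sets 0 were called, or 1 higher in DESeq2 and without a filter on low counts (HTA1). The causes were not tested, save that leaving out a library leaves fewer samples.

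With unscaled sizes 75.4% of called genes were higher, against 41.5%. The histone median minus that of all genes was -0.31 to -0.05 over all alternatives in the mean of both sets, -0.40 to -0.15 in MIF_1 and -0.25 to -0.02 in MIF_3. No called gene changed direction in any alternative.

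Replicate numbers did not pair the libraries: deviations of same-numbered libraries correlated at -0.04, -0.04 and 0.04 over 20438 genes. With the replicate block 2 genes fell (HTB6 and HTA11) and 1 rose in the mean of both sets; the block ended the calls of AT5G59690 (edgeR adjusted p = 0.0616), AT5G59970 (0.0507), AT5G10400 (0.0657) and HTA13 (0.0651), and the counts in the other comparisons were the same.

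With 2 libraries per group and SEs of 0.09 to 0.38 on the log2 scale, changes of the size seen here lie close to the threshold, and depth limits HTB7, HTB8 and HTB10.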

Other observations

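The other H2A.X gene, HTA5, named after its value was seen, did not share the rise of HTA3. HTA5 had 77.3 and 69.8 CPM in WT, against 61.7 and 76.1 in MIF_1 and 65.6 and 68.2 in MIF_3, with a log2 fold change of -0.12 ± 0.11 in the mean of both sets (edgeR adjusted p = 0.494). The difference between the changes of HTA3 and HTA5 was not tested.

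The replacement H3 genes HTR4, HTR5 and HTR8, named after their values were seen, code for H3.3, which is placed outside replication, and had log2 fold changes of -0.01 ± 0.08, 0.03 ± 0.09 and 0.05 ± 0.08 (edgeR adjusted p = 0.944, 0.832 and 0.741) in the mean of both sets, none of which passed. The difference from the H3.1 genes was not tested.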
